A study of Mus musculus with 24 samples.

Results

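Glucocorticoid signalling was followed through 10 genes, namely 8 genes that respond to the hormone (Klf15, Klf9, Fkbp5, Tsc22d3, Sgk1, Hif3a, Per1 and Pdk4) and the 2 receptors that bind it (Nr3c1 and Nr3c2). They were picked by name out of the 54532 genes in each count table, all 10 were found, and all 10 passed the filter on low counts in every comparison. The stated rule of choice named measured values for 2 of them, because Klf15 was known to be higher in mutants in all 3 tissue and age sets and Hif3a in both tissues at P42. Those differences, and the interactions built on them, are therefore described here with no p, and both genes are left out of the counts and medians of those comparisons. The other 8 genes and the gene lists used below were also chosen with earlier results of these data known. Counts over them are therefore not those of an unselected set.

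The study compared C57BL/6J mice carrying a mutation of Polr3a, the gene of the largest subunit of RNA polymerase III, with wild type mice by sequencing of polyadenylated RNA. The mutant groups were P42 cerebrum, P42 cerebellum and P75 cerebrum, each set against a wild type group of the same tissue and age, with 4 libraries in each of the 6 groups and 24 in all. All mice, wild types included, were fed ad libitum and were treated with tamoxifen, which induced the recombination at P28, so the libraries date from 14 days (P42) and 47 days (P75) later. All P75 libraries came from males. At P42 the cerebrum groups had 2 males and 2 females each, and the cerebellum groups had 2 males and 2 females among mutants and 3 males and 1 female among wild types. The labels do not name the promoter that drove the recombinase, the cells in which it acted or whether the wild types carried it. They also do not say whether libraries came from separate animals, so p-values measure the spread between libraries.

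Corticosterone, the main glucocorticoid of the mouse, crosses the cell membrane and binds receptors held in the cytoplasm by Hsp90 and its partners. The bound receptor moves to the nucleus and switches on genes at paired copies of a short DNA element. The mineralocorticoid receptor Nr3c2 binds the hormone with high affinity and is abundant in neurons of the forebrain, while the glucocorticoid receptor Nr3c1 has a lower affinity, is present in most brain cells and is engaged during stress and at the daily hormone peak. Many of the induced genes, Tsc22d3, Sgk1, Fkbp5 and Pdk4 among them, are also active in glia and vessels, and the hormone rises and falls with the time of day.

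All 10 are protein-coding, and their places on build mm10 are those of the deposited tables. The induced regulators of transcription were placed with Klf15 (ENSMUSG00000030087) at chr6:90462576-90475238 on the plus strand, Klf9 (ENSMUSG00000033863) at chr19:23141226-23166911 on the plus strand, Hif3a (ENSMUSG00000004328) at chr7:17031507-17062427 on the minus strand and Per1 (ENSMUSG00000020893) at chr11:69095217-69109960 on the plus strand. The other induced genes were placed with Fkbp5 (ENSMUSG00000024222) at chr17:28399094-28517527 on the minus strand, Tsc22d3 (ENSMUSG00000031431) at chrX:140539528-140600659 on the minus strand, Sgk1 (ENSMUSG00000019970) at chr10:21882184-21999903 on the plus strand and Pdk4 (ENSMUSG00000019577) at chr6:5483351-5496309 on the minus strand. The receptor genes were Nr3c1 (ENSMUSG00000024431), whose place is not reported here, and Nr3c2 (ENSMUSG00000031618), which was placed at chr8:76899442-77245012 on the plus strand.

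Of the 10 genes, 9 had at least 1 promoter window in a RefSeq table on build GRCm38.p6, each window running from 250 bases before to 50 bases after an annotated start. There were 17 such windows. Both strands were searched for the receptor's single arm AGAACA, for its full palindrome, in which the arm is followed after any 3 bases by TGTTCT, and for the E-box CACGTG, the element of the circadian clock proteins. A window of Sgk1 and the window of Klf15 are shown because they held the most arms or E-boxes. Capitals mark the arms AGAACA, read as TGTTCT on the other strand, and the E-boxes.
Sgk1, chr10:21993640-21993939, plus strand: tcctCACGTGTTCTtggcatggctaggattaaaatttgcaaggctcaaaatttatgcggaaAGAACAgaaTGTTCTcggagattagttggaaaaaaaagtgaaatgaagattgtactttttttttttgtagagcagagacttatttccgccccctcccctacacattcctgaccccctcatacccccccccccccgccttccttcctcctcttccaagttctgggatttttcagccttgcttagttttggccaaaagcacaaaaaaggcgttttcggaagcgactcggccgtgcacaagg
Klf15, chr6:90462326-90462625, plus strand: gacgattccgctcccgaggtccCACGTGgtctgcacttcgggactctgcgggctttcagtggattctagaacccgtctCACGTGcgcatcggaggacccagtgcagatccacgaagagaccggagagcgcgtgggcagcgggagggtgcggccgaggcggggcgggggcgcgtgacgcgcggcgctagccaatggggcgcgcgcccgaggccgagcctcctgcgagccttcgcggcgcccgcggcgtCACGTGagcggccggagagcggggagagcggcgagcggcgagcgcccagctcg
The Sgk1 window, the fifth of 6 for that gene, held the full palindrome with its first base at -189 from the start, and 3 of all 32851 windows (0.00913%) held it. A further arm at -242 shared bases with an E-box at -246. The Klf15 window held 3 E-boxes, at -228, -172 and -3, and no arm. At least 3 E-boxes were present in 29 of the 32851 windows (0.0883%), and at least 1 in 7.15%. Single E-boxes stood at -169 in the Fkbp5 window and at -166 in the first Per1 window, and the arm, present in 19.0% of all windows, stood among others at -185 in the second Tsc22d3 window. These matches describe the letters only, and the data hold no measure of binding.

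Sequencing depth was 13832721 to 23175864 gene counts per library. No member had fewer than 92 counts in any library. Polr3a itself differed by -0.14 ± 0.11 in cerebrum at P42, 0.10 ± 0.13 in cerebellum and -0.10 ± 0.09 in cerebrum at P75 (log2 fold change mutant over wild type ± SE, adjusted p = 0.562, 0.984 and 0.542, edgeR quasi-likelihood test), so its gene count does not check the labels, while sex-linked transcripts fitted the sex given in the labels for 24 of 24 libraries. Levels below are CPM, counts scaled to 1000000 per library within each tissue and age, so a level set across tissues or ages crosses separate scalings. Some libraries differed in the levels of transcripts that mark regions or cells. In cerebrum at P42, 17 of 18 transcripts that mark thalamus, hypothalamus or midbrain were higher in mutants, with a mean log2 CPM over the list of 3.08 to 5.32 in mutants and 1.40 to 3.42 in wild types. In the same libraries 10 of 10 microglia and myeloid markers were lower, at 3.25 to 3.40 in mutants and 3.58 to 3.91 in wild types, and 7 of 8 oligodendrocyte markers were higher, at 8.30 to 8.95 in mutants and 7.94 to 8.48 in wild types. EdgeR called 0 markers of these 3 lists, beside 0.0165% of all genes. DESeq2 called 9 of 18, 2 of 10 and 1 of 8 in the order given, beside 1.30% of all genes. An unadjusted p under 0.05 by edgeR was found for 12, 5 and 5, beside 12.6% of all genes. In cerebellum at P42, 14 of 15 choroid plexus and ependyma markers were lower in mutants, at 0.85 to 3.47 in mutants and 3.94 to 4.19 in wild types, and 6 of 6 blood markers were lower, at -0.66 to 0.91 in mutants and 0.12 to 2.79 in wild types. EdgeR called 0 of either list, beside 0.0114% of all genes, and 7 and 6 had an unadjusted p under 0.05, beside 4.65%. In P42 cerebrum 10 of the 15 choroid plexus and ependyma markers and 3 of 3 blood markers tested were lower. The choroid plexus list there was at 1.88 to 3.24 in mutants and 2.34 to 3.85 in wild types. EdgeR called 0 of its 15, 11 had an unadjusted p under 0.05, and no choroid plexus covariate was fitted there. Cerebellar neuron markers summed to 10100, 4400, 9020 and 2900 CPM in mutant cerebellum, against 7310, 8720, 5520 and 6800 CPM in wild type cerebellum, so that mutant replicates 2 and 4 were the lowest of the 8 libraries. In cerebrum at P75, 10 of 10 microglia and myeloid markers were higher in mutants and 8 of them passed the test, beside 7.66% of all genes called higher. Their mean log2 CPM was 4.36 to 5.31 in mutants and 3.84 to 3.96 in wild types. None of the markers in these lists was at 0 in the whole of any group named here. The part of these markers in the members' differences was not tested beyond the covariates given below. In bulk tissue, fewer cells of a type and less RNA per cell cannot be told apart.

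**Figure D1:**
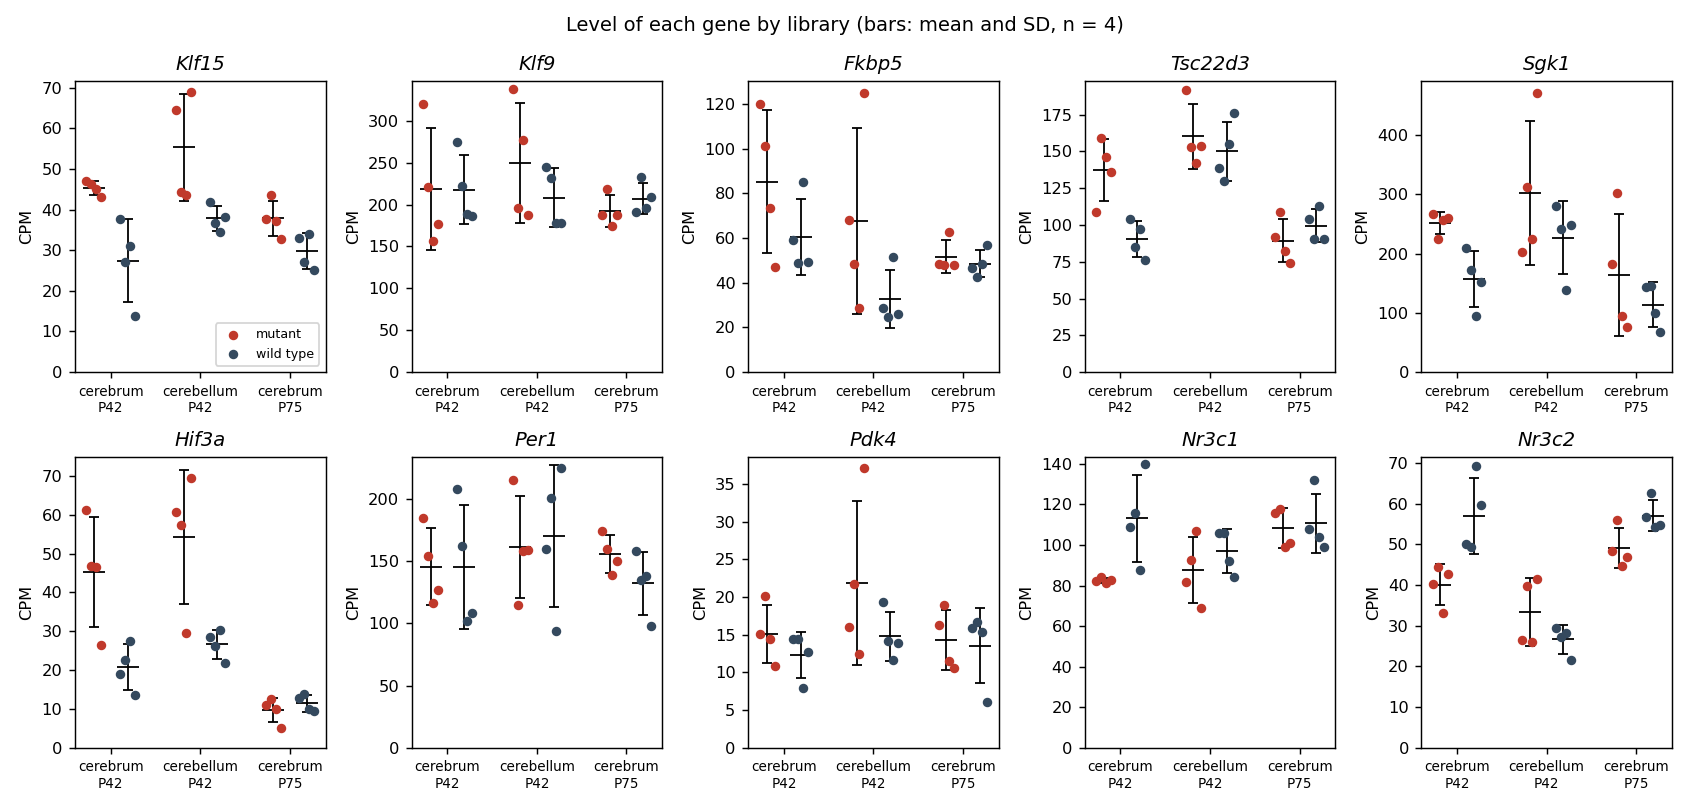
Level of each gene in CPM (vertical axes, from 0) in every library of P42 cerebrum, P42 cerebellum and P75 cerebrum, mutants in red to the left of wild types in dark blue, with black bars for the mean and SD of 4 libraries. Klf15 does not overlap between genotypes in either tissue at P42, Hif3a sits between 5.18 and 13.9 CPM in all P75 libraries, and Nr3c1 spans 81.2 to 84.0 CPM in P42 mutant cerebrum.

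Among the induced transcription factors, Klf15, which controls amino acid and lipid metabolism in liver and muscle, was higher in mutants in all 3 sets. It had 47.1, 46.2, 45 and 43.2 CPM in P42 mutant cerebrum, against 37.8, 27.2, 31.1 and 13.7 CPM in wild type cerebrum. In cerebellum it had 64.5, 44.3, 43.6 and 68.9 CPM in mutants, against 41.8, 36.6, 34.6 and 38.3 CPM in wild types. In P75 cerebrum it had 37.8, 43.5, 37.2 and 32.8 CPM in mutants, against 33.1, 27.1, 34.0 and 25.1 CPM in wild types. All mutants lay above all wild types in both tissues at P42, and the groups overlapped at P75. The log2 fold changes were 0.77 ± 0.23 in P42 cerebrum, 0.54 ± 0.18 in cerebellum and 0.34 ± 0.11 in P75 cerebrum (SE). The P42 wild type cerebrum library at 13.7 CPM stood well below the other 3, and without it the difference there was 0.54. With the choroid plexus marker level as a covariate, the difference in cerebellum was 0.28, and with the level of thalamus, hypothalamus and midbrain markers it was 1.14 in P42 cerebrum.

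Klf9, a related zinc finger factor that glucocorticoids and thyroid hormone induce in neurons, had the highest mean level per length of the 10 genes in all 6 groups. Its mean was 67.0 CPM per kilobase in mutants and 66.8 in wild types in P42 cerebrum, 76.5 in mutants and 63.8 in wild types in cerebellum, and 58.8 in mutants and 63.5 in wild types in P75 cerebrum. The genotype groups overlapped in each set, with log2 fold changes of 0.00 ± 0.22, 0.32 ± 0.21 and -0.11 ± 0.09 in P42 cerebrum, cerebellum and P75 cerebrum (adjusted p = 0.999, 0.967 and 0.431, edgeR). Per1, a core repressor of the circadian clock that glucocorticoids also induce, overlapped in each set as well. Its levels spread from 97.8 to 174 CPM over the P75 libraries of both genotypes, from 102 to 208 CPM in P42 cerebrum and from 94.2 to 225 CPM in cerebellum. Its log2 fold changes were 0.01 ± 0.24 in P42 cerebrum, -0.11 ± 0.27 in cerebellum and 0.24 ± 0.12 in P75 cerebrum (adjusted p = 0.988, 0.999 and 0.200, edgeR).

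Hif3a, a member of the hypoxia-inducible factor family whose transcript glucocorticoids raise, was higher in mutants at P42 in both tissues. It had 61.1, 46.8, 46.5 and 26.5 CPM in mutant cerebrum at P42, against 19.0, 22.7, 27.6 and 13.5 CPM in wild type cerebrum. In cerebellum it had 60.8, 57.4, 29.5 and 69.5 CPM in mutants, against 28.5, 26.1, 30.4 and 21.7 CPM in wild types. In each tissue the lowest mutant lay just under the highest wild type and the other 3 mutants lay above all wild types. The log2 fold change was 1.11 ± 0.24 in either tissue (SE). With the marker covariates it was 1.54 in cerebrum and 1.15 in cerebellum, and without mutant replicates 3 and 4, the cerebrum libraries with the highest thalamus, hypothalamus and midbrain marker levels (5.32 and 5.17), it was 1.37 in cerebrum. At P75, which the stated rule had not used for Hif3a, it had 11.1, 12.5, 9.98 and 5.18 CPM in mutants, against 12.7, 13.9, 9.97 and 9.34 CPM in wild types. The P75 groups overlapped, and the difference of -0.24 ± 0.22 did not pass the test (adjusted p = 0.527, edgeR). It was -0.03 without mutant replicate 4. Per length it was the least abundant of the 10 genes at P75, at 1.45 ± 0.475 CPM per kilobase in mutants and 1.71 ± 0.328 in wild types (SD, n = 4), while at P42 cerebrum had 6.74 in mutants and 3.09 in wild types.

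Tsc22d3, the glucocorticoid-induced leucine zipper that restrains inflammatory transcription, differed between genotypes in P42 cerebrum. It had 109, 159, 146 and 136 CPM in mutants, against 104, 85.1, 97.0 and 76.2 CPM in wild types. All mutants lay above all wild types, the closest pair being 109 and 104 CPM. The mutant at 109 CPM was replicate 1, the mutant lowest in thalamus, hypothalamus and midbrain markers (3.08, against 4.51 to 5.32 in the others). Over 18 alternatives, the marker covariate among them, the log2 fold change of Tsc22d3 ran from 0.47 to 0.74. The main difference of 0.61 ± 0.15 had an adjusted p of 0.324 by edgeR and 0.0400 by DESeq2, and the authors' deposited table gave 0.60 with an adjusted p of 0.0327. In cerebellum Tsc22d3 had 192, 153, 142 and 154 CPM in mutants, against 139, 130, 155 and 176 CPM in wild types. In P75 cerebrum it had 91.8, 109, 82.5 and 74.4 CPM in mutants, against 104, 90.4, 113 and 90.2 CPM in wild types. The groups overlapped in both of these sets, with differences of 0.09 ± 0.14 and -0.15 ± 0.11 (adjusted p = 0.988 and 0.400, edgeR).

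Sgk1, a kinase that raises ion transport downstream of both receptors, had 267, 225, 256 and 261 CPM in P42 mutant cerebrum and 209, 173, 94.5 and 152 CPM in wild type cerebrum. The 2 groups did not overlap, and the difference was 0.68 ± 0.22 (adjusted p = 0.359, edgeR), from 0.47 to 1.03 over 18 alternatives. In cerebellum it had 203, 313, 225 and 471 CPM in mutants, against 281, 241, 138 and 248 CPM in wild types, with 471 CPM the highest value of any member in any library. The mutants at 313 and 471 CPM were replicates 2 and 4, those lowest in cerebellar neuron markers. At P75 it had 182, 303, 95.0 and 76.7 CPM in mutants, against 143, 146, 99.1 and 66.8 CPM in wild types. The groups overlapped in both sets, at 0.32 ± 0.30 and 0.53 ± 0.34 (adjusted p = 0.979 and 0.337, edgeR). The P75 difference was 0.06 without mutant replicate 2, the library at 303 CPM.

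Fkbp5, a co-chaperone that lowers the receptor's affinity for hormone and is itself induced by it, varied most between P42 mutant libraries relative to its mean. It had 120, 101, 73.2 and 46.9 CPM in mutant cerebrum and 59.1, 48.7, 85 and 49.4 CPM in wild type cerebrum. In cerebellum it had 68.2, 48.2, 28.5 and 125 CPM in mutants, against 28.5, 24.5, 51.7 and 26 CPM in wild types. The differences of 0.51 ± 0.25 and 1.02 ± 0.47 did not pass the test (adjusted p = 0.423 and 0.967, edgeR), the groups overlapped, and the second was 0.56 without mutant replicate 4. The 2 cerebrum mutants lowest in Fkbp5 were replicates 3 and 4, those highest in the regional markers, and without them the first difference was 0.89. At P75 Fkbp5 spanned 47.8 to 62.5 CPM in mutants, against 42.5 to 56.7 CPM in wild types, a difference of 0.09 ± 0.11 (adjusted p = 0.627, edgeR). Pdk4, which shuts pyruvate out of oxidation by phosphorylating pyruvate dehydrogenase, overlapped in all 3 sets. It had 15.1, 20.2, 14.4 and 10.8 CPM in mutants, against 14.4, 14.4, 7.94 and 12.7 CPM in wild types in P42 cerebrum, and 16.1, 21.8, 12.5 and 37.1 CPM in mutants against 19.4, 14.2, 11.7 and 13.9 CPM in wild types in cerebellum, where the 2 highest were again mutant replicates 2 and 4. At P75 it spanned 10.6 to 18.9 CPM in mutants, against 6.12 to 16.7 CPM in wild types. Its differences were 0.30 ± 0.24, 0.51 ± 0.34 and, at P75, 0.08 ± 0.26 (adjusted p = 0.573, 0.967 and 0.877, edgeR).

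The receptors lay the other way in P42 cerebrum. Nr3c1 had 82.1, 84.0, 81.2 and 82.7 CPM in mutants, against 109, 116, 87.8 and 140 CPM in wild types. Nr3c2 had 40.2, 44.5, 33.2 and 42.7 CPM in mutants, against 50, 49.4, 69.2 and 59.6 CPM in wild types. For both receptors every mutant lay below every wild type, and for Nr3c1 the mutant libraries were nearly level while the wild types spread widely. The differences of -0.44 ± 0.13 for Nr3c1 and -0.51 ± 0.15 for Nr3c2 had adjusted p = 0.345 and 0.352 (edgeR). Nr3c2 is strongly expressed in forebrain neurons, and in the same libraries 7 of 7 excitatory neuron markers were lower in mutants, with a median log2 fold change of -0.91. EdgeR and DESeq2 called 0 of the 7, beside 0.0165% and 1.30% of all genes, and 0 had an unadjusted p under 0.05, beside 12.6%. The mutants were split, however, as these markers summed to 4870, 3650, 868 and 1200 CPM, against 3190 to 6180 CPM in wild types. Mutant replicates 3 and 4 thus lay below all wild types. The part of regional makeup in the receptors' differences was not tested beyond the marker covariate, under which they were -0.44 for Nr3c1 and -0.64 for Nr3c2. In cerebellum Nr3c2 had 26.4, 39.8, 26.1 and 41.4 CPM in mutants, against 29.5, 27.3, 28.2 and 21.6 CPM in wild types, and the difference was 0.37 ± 0.20 (adjusted p = 0.967, edgeR). The 2 highest were mutant replicates 2 and 4, as for Sgk1 and Pdk4. Other members went otherwise in cerebellum, as Klf15, Hif3a and Fkbp5 were highest in mutant replicates 1 and 4, and Klf9 in 1 and 3. Tsc22d3, Per1 and Nr3c1 each had a wild type among the 2 highest. Mutant replicate 1 was the highest of all in cerebellar neuron markers (10100 CPM), and the part of these markers in the members' values was not tested. In P75 cerebrum it had 48.3, 56.1, 44.8 and 46.9 CPM in mutants, against 56.8, 62.6, 54.3 and 54.7 CPM in wild types, which overlapped through a single mutant library, at -0.22 ± 0.09 (adjusted p = 0.104, edgeR). Without that library, mutant replicate 2, the adjusted p was 0.0431. Excitatory neuron markers were lower in the same P75 mutants, 7 of 7 with a median of -0.45 and 6 called, beside 6.62% of all genes called lower. Their mean log2 CPM was 7.20 to 7.62 in mutants and 7.83 to 8.04 in wild types, and their part in the Nr3c2 value was not tested. Nr3c1 overlapped in both of those sets, with 68.8 to 107 CPM in mutants, against 84.2 to 106 CPM in wild types in cerebellum and 99.0 to 118 CPM in mutants, against 99.1 to 132 CPM in wild types at P75. Its differences there were -0.12 ± 0.16 and -0.03 ± 0.09 (adjusted p = 0.984 and 0.889, edgeR).

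**Figure D2:**
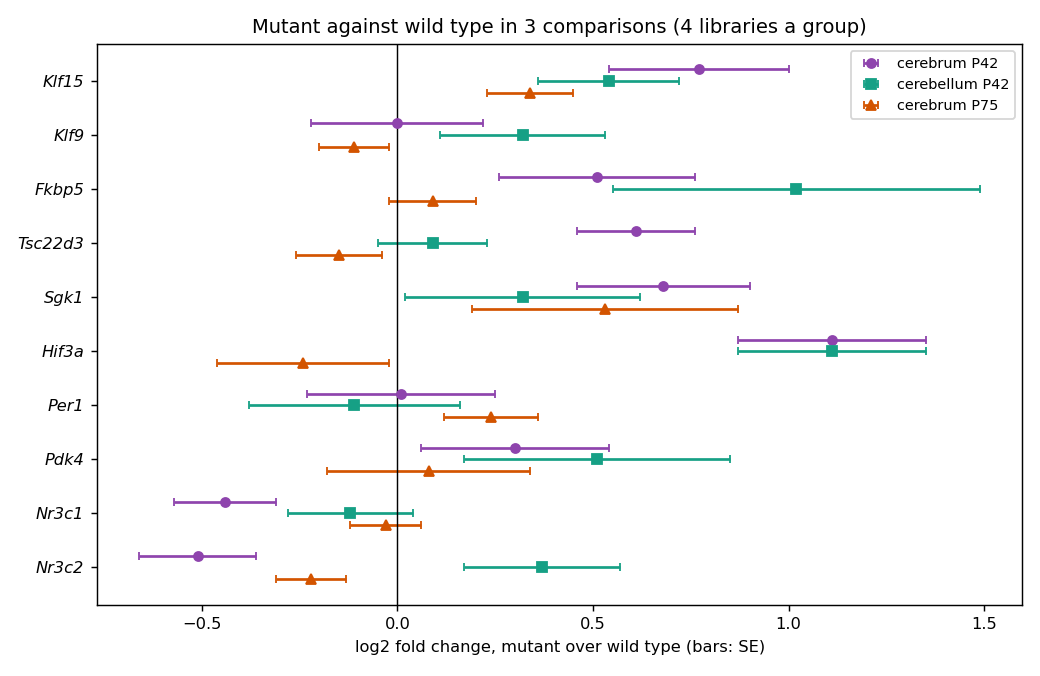
Log2 fold change of each gene, mutant over wild type (horizontal axis, bars for the SE of the edgeR fit), in cerebrum at P42 (circles), cerebellum at P42 (squares) and cerebrum at P75 (triangles). Hif3a stands at 1.11 in both tissues at P42 and at -0.24 at P75, and both receptors lie left of 0 in P42 cerebrum.

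Counted over the 8 genes other than Klf15 and Hif3a, 0 passed an adjusted p of 0.05 by edgeR in P42 cerebrum, where 0.0165% of all genes did. Tsc22d3, Sgk1, Nr3c1 and Nr3c2 (4 of 8) had an unadjusted p under 0.05, as did 12.6% of all genes. DESeq2 called 1 of the 8, Tsc22d3, against 1.30% of all genes. Groups did not overlap for 4 of the 8, against 6.41% of all genes, with Tsc22d3 and Sgk1 (2) above and the 2 receptors below, where 3.53% of all genes were above and 2.88% below. The median log2 fold change of the 8 was 0.16, against 0.01 over all genes.

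In cerebellum 0 of the same 8 were called by edgeR, where 0.0114% of all genes were, 0 had an unadjusted p under 0.05, where 4.65% of all genes did, and DESeq2 called 0, against 0.233% of all genes. Groups overlapped for each of the 8, while 3.43% of all genes had no overlap and 1.85% had all mutants above. The median of the 8 was 0.32, with 6 higher and 2 lower, against a median of 0.01 over all genes. In P75 cerebrum 0 of the 9 genes other than Klf15 were called by edgeR while 14.3% of all genes were, and Nr3c2 (1 of 9) had an unadjusted p under 0.05, as did 28.8% of all genes. DESeq2 called 0 of the 9, against 17.6% of all genes, and 0 were free of overlap where 20.0% of all genes were. The median was -0.03, with 4 higher and 5 lower.

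Whether the genotype effect itself differed was tested by interaction. Between cerebrum and cerebellum at P42, edgeR called 0 of the 8 genes other than Klf15 and Hif3a, as it did 0.00% of all genes. DESeq2 called 0 of the 8 and 0.0357% of all genes. Tsc22d3 and Nr3c2 (2) had an unadjusted p under 0.05, as did 6.18% of all genes. The cerebrum effect minus the cerebellum effect was -0.85 ± 0.25 for Nr3c2 and 0.51 ± 0.21 for Tsc22d3 (log2, adjusted p = 0.732 for each, edgeR). Between P75 and P42 in cerebrum, edgeR again called 0 of the 8, against 1.36% of all genes, DESeq2 called 1, Tsc22d3, against 3.48%, and 2 had an unadjusted p under 0.05, against 14.1%. The P75 effect minus the P42 effect was -0.76 ± 0.20 for Tsc22d3 (adjusted p = 0.0743 by edgeR and 0.0180 by DESeq2). The edgeR value was 0.0455 without P75 mutant replicate 2 and 0.0108 without P42 mutant replicate 1. For Nr3c1 it was 0.42 ± 0.16 (adjusted p = 0.237, edgeR). For Hif3a it was -1.35 ± 0.36, which is given without a test because its P42 difference had served to choose it. Age cannot be told apart from the separate count table of the P75 libraries, or from the days since tamoxifen (47 against 14). The P75 libraries were also all from males. In the same contrast 18 of 18 thalamus, hypothalamus and midbrain markers were lower, with a median of -1.8. EdgeR called 4 of them, beside 0.322% of all genes called lower, and their part in these values was not tested.

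Levels in the 2 wild type tissues, which the stated rule of choice had not used, differed for 3 of the 10 by edgeR, where 30.5% of all genes did, 16.4% higher in cerebrum and 14.1% lower. DESeq2 called 3 members as well, and 34.1% of all genes. Nr3c2 was higher in cerebrum than in cerebellum, at 57.0 ± 9.34 CPM in cerebrum and 26.7 ± 3.47 CPM in cerebellum (SD, n = 4), a log2 fold change of 1.25 ± 0.15 (adjusted p = 0.000113). Fkbp5 was higher too, at 60.6 ± 17.0 CPM in cerebrum and 32.7 ± 12.8 CPM in cerebellum (1.08 ± 0.23, adjusted p = 0.00512, edgeR). Tsc22d3 was lower, at 90.5 ± 12.2 CPM in cerebrum and 150 ± 20.3 CPM in cerebellum (-0.64 ± 0.14, adjusted p = 0.00687, edgeR). Those 3 calls held without each library in turn. The other 7 did not pass, from Sgk1 at -0.48 ± 0.27 (adjusted p = 0.209) to Nr3c1 at 0.27 ± 0.16 (adjusted p = 0.243, edgeR). In the mutant libraries edgeR called 0 of the 10 between tissues, with Nr3c2 at 0.32, Fkbp5 at 0.39 and Tsc22d3 at -0.16 (adjusted p = 0.299, 0.608 and 0.546) and no member at an unadjusted p under 0.05, where 13.8% of all genes were called and 29.4% had an unadjusted p under 0.05. That this contrast differed between genotypes is the same interaction given above, which edgeR did not call. Of 4 genes of hormone supply and export, 1 was called higher in wild type cerebrum than in wild type cerebellum and 2 lower. Of all genes, 16.4% were called higher and 14.1% lower. Hsd11b1, which regenerates active glucocorticoid, was lower (-1.73 ± 0.27, adjusted p = 0.000700, edgeR), as was H6pd, which feeds it cofactor (-1.08 ± 0.17, adjusted p = 0.000952, edgeR), while the transporter gene Abcb1b was higher (1.25 ± 0.28, adjusted p = 0.00745, edgeR). Of 12 receptor chaperones, 10 were higher in cerebrum and 2 lower, with a median of 0.21, against -0.03 for all genes. Called among them were Hsp90ab1 and Dnajb1, higher at 0.39 ± 0.12 and 0.42 ± 0.14, and Fkbp4, the co-chaperone that works against Fkbp5, lower at -0.94 ± 0.17 (adjusted p = 0.0293, 0.0442 and 0.00184, edgeR).

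**Figure D3:**
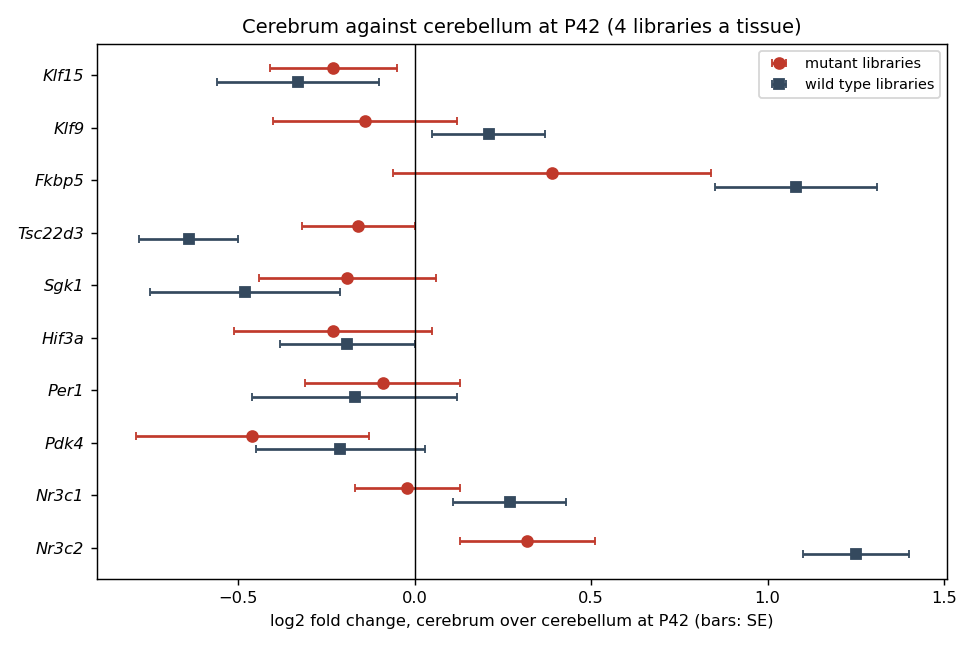
Log2 fold change of each gene, cerebrum over cerebellum at P42 (horizontal axis, bars for the SE), in mutant libraries (red circles) and wild type libraries (dark blue squares), with 4 libraries a tissue. Nr3c2 and Fkbp5 stand at 1.25 and 1.08 in wild types, while the mutants' values for both lie nearer 0.

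Between the sexes at P42, edgeR called 0 of the 10, against 0.0357% of all genes, and DESeq2 called 0, against 0.0408%. Hif3a was the 1 member with an unadjusted p under 0.05, where 1.31% of all genes had one, at 0.39 ± 0.18 in males over females (adjusted p = 0.890, edgeR).

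The order of the members by mean level per length was much alike over the 6 groups. Klf9 came first, followed in varying order by Sgk1, Per1 and Tsc22d3, with Nr3c1 and Klf15 next. Single libraries could differ, as Sgk1 lay above Klf9 in mutant cerebellum replicates 2 and 4 (63.9 and 96.1 CPM per kilobase, against 59.9 and 57.4). In P75 wild types Klf9 (63.5 CPM per kilobase) lay clear of the next gene, while Per1, Sgk1 and Tsc22d3 (23.5, 23.2 and 22.9) overlapped. Nr3c1 followed at 14.9 and Klf15 at 10.7 with no overlap between them, and in P42 mutants of both tissues and wild type cerebellum the order of that pair was the other way, at 16.3 for Klf15 and 11.1 for Nr3c1 in mutant cerebrum.

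To see which members varied together between libraries of the same group, each gene's log2 CPM was set against the mean of its own group, which removes the genotype, tissue and age differences. Differences between libraries of a group in sex and in the levels of region or cell markers remain, and their part in these pairs was not tested. Of 45 pairs over 24 libraries, 4 passed a within-group permutation test after Benjamini-Hochberg adjustment. Sgk1 and Pdk4 moved together most closely, with r = 0.79 and rho = 0.75 (adjusted permutation p = 0.00360 and 0.00630). Without the 2 libraries farthest from the median of Sgk1, r was 0.81, and within the sets it was 0.82 in P75 cerebrum, 0.59 in P42 cerebrum and 0.88 in cerebellum. This was the 1 pair that still passed without such libraries (adjusted permutation p = 0.0162). Mutant cerebellum replicates 2 and 4, those lowest in cerebellar neuron markers, deviated by 0.13 and 0.72 for Sgk1 and by 0.12 and 0.88 for Pdk4.

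Fkbp5 ran against the receptor Nr3c1, with r = -0.66 and rho = -0.63 (adjusted permutation p = 0.0285 and 0.0436), and with r = -0.76, -0.47 and -0.81 in P75 cerebrum, P42 cerebrum and cerebellum. Klf15 and Tsc22d3 varied together, with r = 0.57 and rho = 0.62 (adjusted permutation p = 0.0285 and 0.0436), and with r = 0.92, 0.58 and 0.38 in the same order of sets. Fkbp5 and Hif3a had r = 0.64 and rho = 0.51 (adjusted permutation p = 0.0389 and 0.140), with r = 0.85 in P42 cerebrum and 0.84 in cerebellum but -0.17 in P75 cerebrum. Without the 2 libraries farthest from the median of the first gene, r was -0.47, 0.50 and 0.51 for these 3 pairs, and none of them passed (adjusted permutation p = 0.207, 0.177 and 0.214). That test has fewer libraries, so the loss of a pass alone does not show that a pair rests on those left out. Within a single set of 8 libraries 0 of the 45 pairs passed. Klf9 and Per1 came next, at r = 0.60 and rho = 0.57 (adjusted permutation p = 0.0512 and 0.140). The 2 receptors had r = -0.07 and rho = 0.13 (adjusted permutation p = 0.893 and 0.754).

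Across 14631 genes with at least 1 CPM on average in every group, the gene whose deviations were most like those of Klf15 was Ddit4, a stress- and glucocorticoid-induced inhibitor of mTOR signalling, with r = 0.91 and rho = 0.84 over 24 libraries. It had r = 0.87 in P75 cerebrum, 0.94 in P42 cerebrum and 0.83 in cerebellum, and 0.79 without the 2 libraries farthest from the median of Klf15. Being the highest of 14631, this value is a description and has no p. The next 4 were Tbl3, Slc2a8, Ifi35 and AI837181, at r = 0.89, 0.89, 0.88 and 0.87, and within P75 cerebrum they had only 0.43, 0.23, 0.65 and 0.30. The nearest member, Tsc22d3, ranked 1524th. Ddit4 had 51.3 to 69.2 CPM in mutants, against 8.74 to 72.3 CPM in wild types in P42 cerebrum, where the wild type library lowest in Klf15 was also the lowest in Ddit4, at -1.61 from its group mean.

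**Figure D4:**
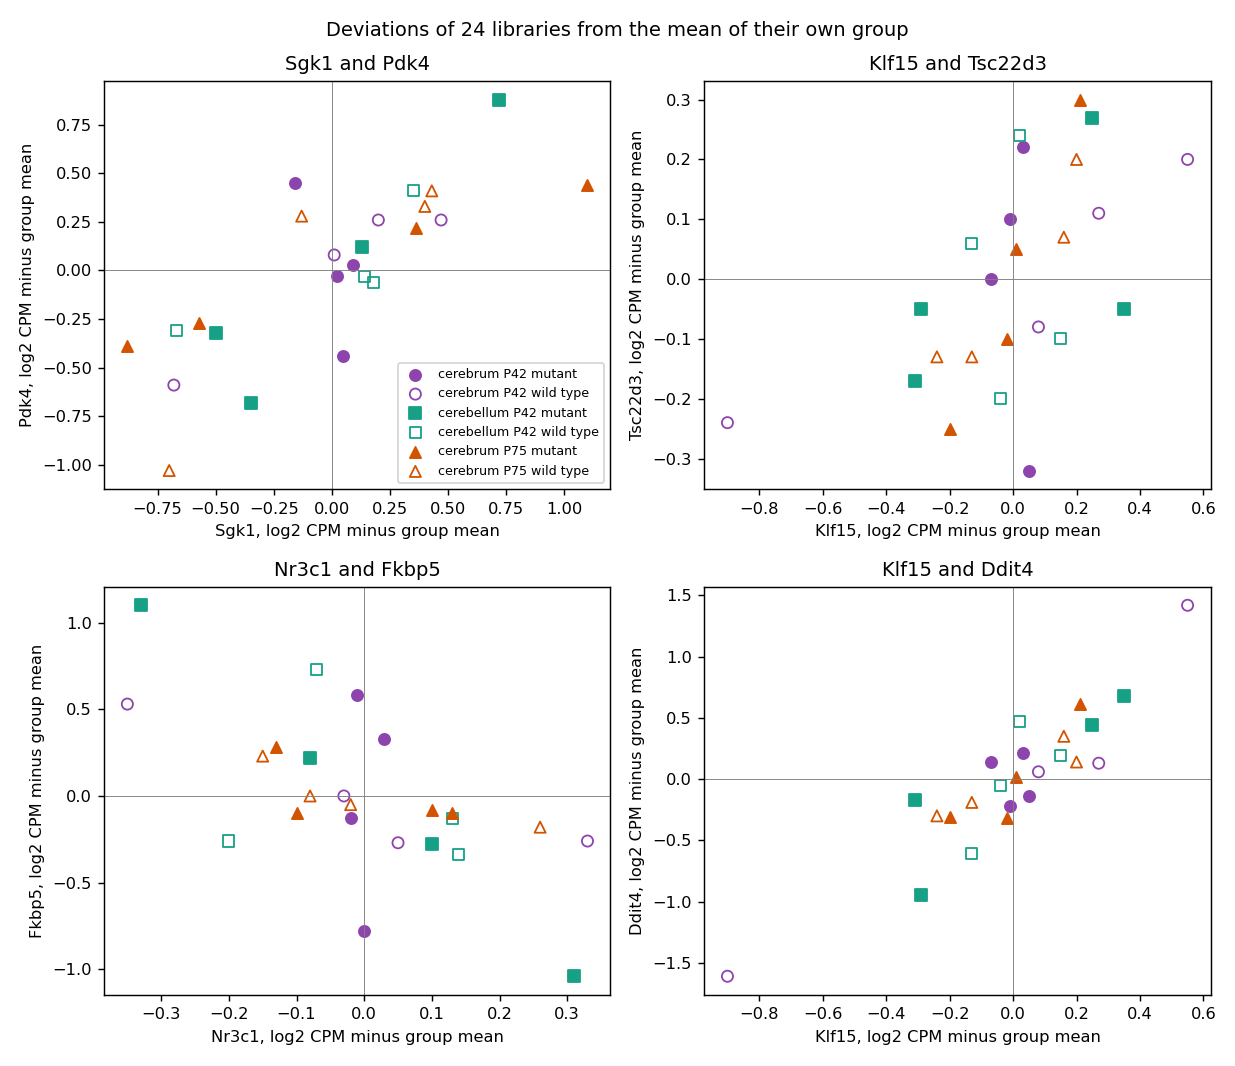
Deviation of each of 24 libraries from the mean of its own group (both axes in log2 CPM) for Sgk1 and Pdk4, Klf15 and Tsc22d3, Nr3c1 and Fkbp5, and Klf15 and Ddit4, with filled symbols for mutants and open symbols for wild types. Points run upward for Sgk1 and Pdk4 (r = 0.79) and for Klf15 and Ddit4 (r = 0.91), and downward for Nr3c1 and Fkbp5 (r = -0.66). A single P42 wild type cerebrum library lies at -0.90 for Klf15.

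Other genes of the pathway were taken from lists. Of 31 other glucocorticoid-induced genes tested in P75 cerebrum, 24 were higher in mutants, 5 lower and 2 at 0.00 to 2 decimals, and 7 passed the test, all of them higher, beside 7.66% of all genes called higher. The median of the list was 0.24, against 0.00 for all genes. Cdkn1a, a cell cycle inhibitor better known as a target of p53, averaged 94.4 ± 21.8 CPM in mutants, against 35.4 ± 5.54 CPM in wild types (1.42 ± 0.15, adjusted p = 2.5e-05). Lcn2, an iron-binding protein of reactive astrocytes, averaged 6.58 ± 4.19 CPM in mutants, against 0.574 ± 0.631 CPM in wild types (3.41 ± 0.55, adjusted p = 0.00101, edgeR). Cebpd, an inflammatory transcription factor, averaged 17.4 ± 8.99 CPM in mutants, against 6.82 ± 1.37 CPM in wild types (1.35 ± 0.29, adjusted p = 0.00709, edgeR). These 3 also answer to inflammation or DNA damage, and microglial markers and Gfap (2.47 ± 0.28) were higher in the same libraries. Their part in the list's difference was not tested. Ddit4 was the sixth of the 7 by p, at 0.62 ± 0.19 (adjusted p = 0.0424, edgeR). Without mutant replicate 2, 19 were higher and 11 lower, with a median of 0.08. The count of 7 called was 3 without mutant replicate 1 or 2 or wild type replicate 2, 3 or 4, and 4 without wild type replicate 1 or by DESeq2, while Cdkn1a, Lcn2 and Cebpd kept their calls in each case.

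At P42 the same list had 26 genes higher, 4 lower and 1 at 0.00 in cerebrum, with a median of 0.34, and 29 higher, 1 lower and 1 at 0.00 in cerebellum, with a median of 0.30, against 0.01 for all genes in either tissue. EdgeR called 0 of the 31 in each, while 10 in cerebrum and 8 in cerebellum had an unadjusted p under 0.05, beside 12.6% and 4.65% of all genes, and DESeq2 called 5 in cerebrum and 0 in cerebellum, beside 1.30% and 0.233% of all genes. Without cerebrum mutant replicates 3 and 4, 30 were higher and 1 lower with a median of 0.54, and with the choroid plexus marker level as a covariate, 20 were higher and 10 lower in cerebellum with a median of 0.14. Rasd1, a small GTPase named for its induction by dexamethasone, had 23.3 to 30.2 CPM in mutants, against 5.05 to 17.5 CPM in wild types in P42 cerebrum (1.21 ± 0.25, adjusted p = 0.230 by edgeR and 0.00155 by DESeq2). Rhou and the lipase Pnpla2 were the next by p there, at 0.55 ± 0.11 and 0.84 ± 0.20 (adjusted p = 0.230 and 0.297, edgeR). In P75 cerebrum Rasd1 had 11.8 to 20.9 CPM in mutants, against 16.8 to 18.4 CPM in wild types, and its genotype effect was lower at P75 than at P42 (difference -1.35 ± 0.30, adjusted p = 0.0333, edgeR), the 1 call of the list in that test, where 0.322% of all genes were called lower. In cerebellum Mertk, Sult1a1 and Cdkn1a had the lowest p, at 0.58 ± 0.16, 0.90 ± 0.28 and 1.30 ± 0.42 (adjusted p = 0.935, 0.967 and 0.967, edgeR).

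The 12 chaperones that hold the receptors were all lower in P75 mutant cerebrum, with a median of -0.16, and 1 passed the test, beside 6.62% of all genes called lower (DESeq2 called 3, beside 17.6% called in either direction). It was Hsp90ab1, the constitutive cytosolic Hsp90, which averaged 1380 ± 59.8 CPM in mutants, against 1600 ± 14.6 CPM in wild types (-0.21 ± 0.06, adjusted p = 0.0379, edgeR). Without mutant replicate 1, 2 or 3 or wild type replicate 1, 3 or 4 edgeR called 0 of the 12, and without wild type replicate 2 it called 2. With library size as the only scaling, which moved the median of all genes to 0.11, 4 of the 12 were higher and 8 lower with a median of -0.06, and none was called. At P42, 4 were higher, 7 lower and 1 at 0.00 in cerebrum and 5 higher, 6 lower and 1 at 0.00 in cerebellum, with medians of -0.01 and 0.00, and edgeR, DESeq2 and an unadjusted p under 0.05 each marked 0 of the 12 in either tissue. Against 14.3% of all genes called at P75, 1 of 12 receptor coregulators passed, Sin3a (0.36 ± 0.10, adjusted p = 0.0292, edgeR). Of the 4 supply and export genes tested, 1 passed, the transporter Abcb1a, which carries some corticosteroids out at the vessel wall (0.26 ± 0.08, adjusted p = 0.0476, edgeR). Endothelial markers were higher in the same mutants, 8 of 8, with 4 called, beside 7.66% of all genes called higher. Their part in the Abcb1a value was not tested.

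Clock genes moved in both directions in P75 cerebrum, with 4 of 18 called higher and 1 called lower, beside 7.66% and 6.62% of all genes. Ciart, a repressor of the clock, had 19.4 to 23.5 CPM in mutants, against 8.95 to 11.8 CPM in wild types (0.97 ± 0.12, adjusted p = 0.000113). Cry1, the partner of Per proteins in the repressor complex, had 33.7 to 48.2 CPM in mutants, against 23.0 to 25.7 CPM in wild types (0.68 ± 0.11, adjusted p = 0.000834, edgeR). Nr1d2 and Nr1d1, the REV-ERB receptors that repress Arntl, were higher by 0.32 ± 0.07 and 0.31 ± 0.07 (adjusted p = 0.00734 and 0.01, edgeR). Hlf, an output factor of the clock, was lower (-0.28 ± 0.08, adjusted p = 0.0274, edgeR). The hour at which tissue was taken is not among the labels, so its part in these values was not tested. At P42 edgeR called 0 of the 18 in either tissue, 2 in each had an unadjusted p under 0.05 (12.6% and 4.65% of all genes), and DESeq2 called 1 in cerebrum, the nuclear receptor Rora (0.68 ± 0.15), and 0 in cerebellum.

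Of 14 hypoxia-inducible factors and targets, kin and cofactors of Hif3a among them, 1 was called at P75, Vegfa (0.30 ± 0.08, adjusted p = 0.0229, edgeR), against 14.3% of all genes, and edgeR and DESeq2 called 0 at P42 in either tissue, where 3 in cerebrum and 0 in cerebellum had an unadjusted p under 0.05 (12.6% and 4.65% of all genes), with medians of 0.09 in cerebrum and 0.01 in cerebellum. Of 30 relatives of the members by family, 1 was called higher and 4 lower at P75, beside 7.66% and 6.62% of all genes. P75 mutants had Klf6 higher (0.31 ± 0.09) and, among the genes called lower, Fkbp1a at -0.29 ± 0.07, Pdk3 at -0.35 ± 0.10 and the progesterone receptor Pgr at -0.36 ± 0.10 (adjusted p = 0.0293, 0.0200, 0.0252 and 0.0334, edgeR). At P42 edgeR and DESeq2 called 0 of the relatives in either tissue, and 4 of 30 in cerebrum and 1 of 29 in cerebellum had an unadjusted p under 0.05, beside 12.6% and 4.65% of all genes.

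**Figure D5:**
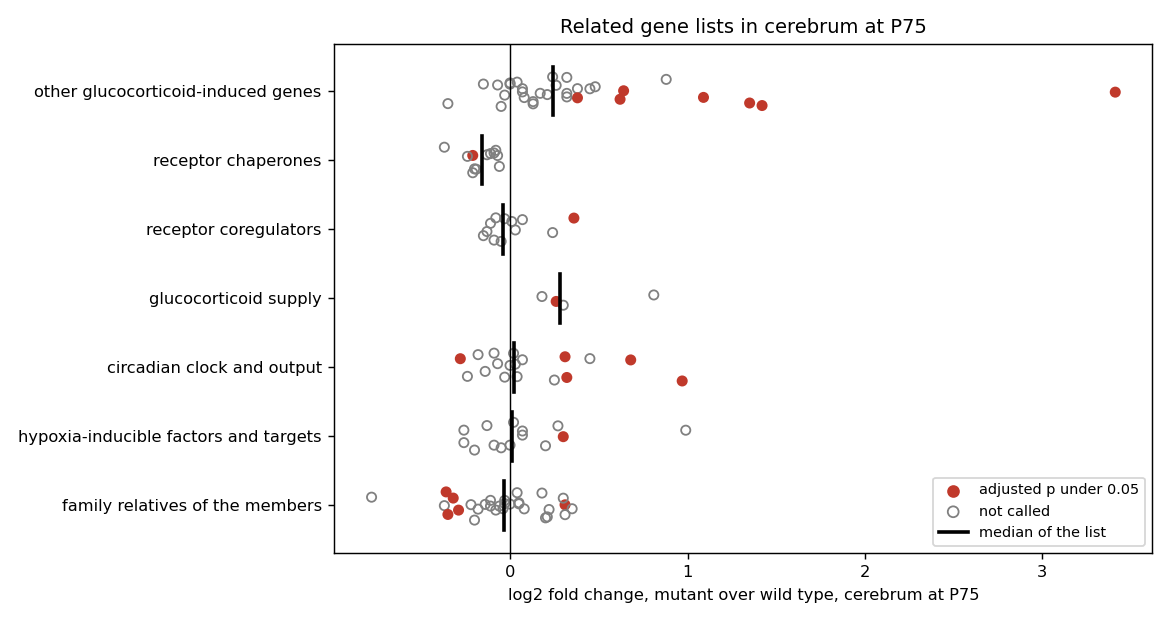
Log2 fold change, mutant over wild type in cerebrum at P75 (horizontal axis), of each tested gene in 7 lists (rows; vertical scatter within a row carries no value). Filled red points passed an adjusted p of 0.05 by edgeR, open grey points did not, and black bars mark each list's median, which is 0.24 for other glucocorticoid-induced genes and -0.16 for receptor chaperones.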

How the data were processed

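Gene counts were deposited by the authors as whole numbers for 54532 genes, with cerebrum and cerebellum at P42 in 1 table and cerebrum at P75 in another. HISAT2, DESeq2 and the build mm10 are named in the submitters' processing notes. Neither the counting program, its annotation release nor its use of strand is given in the sources used here. Of the members, only Nr3c2 shares exon bases with another gene (247 bases with Gm10649, on the opposite strand, in the GRCm38 annotation). The deposited tables of the authors' own comparisons hold log2 fold changes and adjusted p-values. They were used only where the text names them, and 0 columns of per-sample values were left aside.

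Counts were fitted with edgeR 4.0.16 (R 4.3.3, with limma 3.58.1): filterByExpr, TMM scaling, quasi-likelihood fit and test, two-sided, Benjamini-Hochberg over all genes kept, and sex as a covariate at P42. A call is an adjusted p under 0.05, and SE is the log2 fold change over the root of F. DESeq2 1.42.0 was an alternative. CPM is the count over the TMM-scaled library size times 1000000, and levels per length divide by the deposited gene length in units of 1000 bases. Deviations use log2 CPM with a prior count of 2, with 100000 permutations within groups and Benjamini-Hochberg over 45 pairs (Python 3.11.15, scipy 1.17.1). The fits were tested on simulated counts with known fold changes and a capped spread between libraries, where the median fold change had to be recovered. How many changes would be called at the spread of the real libraries was not tested. No 2 libraries of a group agreed within sampling noise (the lowest mean chi-square per gene was 4.28). Depth of 13832721 to 23175864 counts limits Hif3a and Pdk4 most, with 92 counts as the lowest value.

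Same-numbered mutant and wild type libraries were not taken as pairs, because their deviations did not correlate over 0.1 in every pair. Of the lists, up to 3 genes with the smallest p are named per comparison, and more where the called genes number 6 or fewer. Ddit4 and the 4 genes after it are named by likeness to Klf15. Gfap, Rora and the fold changes of Ddit4 were added after their values were seen. The members and the lists were chosen with earlier results of these data known. Promoter windows are those of RefSeq on GRCm38.p6. Alternatives were DESeq2, RLE scaling, library size only, other filters, a threshold of 0.01, no sex term, a replicate block, marker covariates and leaving out libraries.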

Additional observations from a re-analysis of the deposited data

Results flagged for a closer look

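Each member was examined in each of the 6 groups for a library lying far from the other 3, which made 60 groups of values, and 3 libraries stood apart. Chance alone would mark about 1 in 20. Fkbp5 had 51.7 CPM in wild type cerebellum replicate 3 at P42, against 24.5 to 28.5 CPM in the other 3 wild types. Fkbp5 had 62.5 CPM in mutant cerebrum replicate 3 at P75, against 47.8 to 48.4 CPM in the other 3 mutants. Pdk4 had 6.12 CPM in wild type cerebrum replicate 4 at P75, against 15.4 to 16.7 CPM in the other 3 wild types, and without that library the P75 difference of Pdk4 was -0.16 in place of 0.08.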

How the results depend on the processing

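Over 2525 alternative values of the named genes, 2352 kept their side of the threshold, 103 fell short of it and 70 came past it. Those that kept their side include changes of sign where neither value was called and either lay within its SE of 0. No called value changed sign. These values include Klf15 and Hif3a in every comparison. In the counts of called members that follow, both are left out where they were chosen. The other members called by edgeR, 0 in each genotype comparison, were 1 (Tsc22d3) in P42 cerebrum by DESeq2, and 1, 4 and 1 with no filter on low counts in P75 cerebrum, P42 cerebrum and cerebellum. In P75 cerebrum the replicate block gave 3, and leaving out 1 library 0 to 1 (Nr3c2 without mutant replicate 2). For the difference between ages the count was 1 by DESeq2, 1 with no filter and 0 to 1 without a library, each time Tsc22d3. The 3 tissue calls of wild types were 0 in mutants and 3 to 4 without a library. The 4 passing pairs were 1 without the 2 farthest libraries and 0 in each tissue and age alone. The cause of these shifts was not tested. Members changed sign or came to 0.00 in all 3 genotype comparisons, none of them called where they did. In cerebellum this held for Per1 in 3 alternatives, Tsc22d3 in 2 and Klf9 in 1. In P42 cerebrum it held for Per1 in 6, while Klf9, at 0.00 in the main fit, took either sign. In P75 cerebrum it held for Nr3c1 in 4, Pdk4 in 2, and Fkbp5 and Klf9 in 1 each.

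The replicate block called Sgk1, Per1 and Nr3c2 in P75 cerebrum. The correlations of same-numbered libraries there were 0.11, 0.24, 0.11 and 0.05, and 7 of 8 libraries correlated best with their own number, against 4 of 8 in P42 cerebrum and 1 of 8 in cerebellum. All genes called were 2502 in P75 cerebrum (1356 to 2783 without a library, 3537 with the replicate block), 3 in P42 cerebrum (237 by DESeq2, 1312 with no filter, 8 with the replicate block) and 2 in cerebellum (41 by DESeq2, 153 with no filter).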
